A study of Mus musculus with 16 samples.

Results

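Undecanal, a fatty aldehyde odorant, was given to mice whose olfactory neurons carried a green fluorescent protein (GFP) reporter, and the comparison here asked whether the split of each mRNA between the 2 sorted cell fractions depended on the odorant. All 16 arrays of the series entered it, so its members are 16 of 16 samples. Within each pool of 3 mice the log2 level in the fraction titled GFP- was subtracted from that in the fraction titled GFP+, which gave a sort difference per probe set in 4 undecanal pools and 4 vehicle pools. The change is the mean sort difference of the undecanal pools minus that of the vehicle pools, so a positive change means a shift of an mRNA towards the fraction titled GFP+. No probe set passed the test of this change: 0 of 22206 had a limma adjusted p under 0.05 (0%), while 860 had an unadjusted p under 0.05 (3.87%), 452 of them higher (2.04%) and 408 lower (1.84%).

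The mice were C57BL/6 S100a5-tauGFP animals of both sexes, 7 to 12 weeks old, in which tau-GFP follows the S100a5 gene, and the controls carried the same allele. Each of the 24 mice was kept alone under a clean air stream of 3.1 L/min for 40 h and, from 26 h on, received 10 s pulses of either undecanal or filtered air (the vehicle) every 20 min. The olfactory mucosa was then dissociated and sorted on GFP. Each array held RNA of 3 pooled mice, so single animals were not resolved, and the 4 groups of 4 arrays were undecanal and vehicle, each titled GFP+ and titled GFP-. Levels are log2 signals as deposited, and precision is limited by how many arrays there were. In sorted bulk RNA, fewer cells of a type and less RNA per cell cannot be told apart.

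A mature olfactory sensory neuron transcribes mainly a single odorant receptor gene, and its axon joins others with the same receptor. Odorant binding raises cyclic AMP through a G protein and an adenylyl cyclase, which opens a cyclic nucleotide-gated channel, and sustained activity raises the transcription of a set of genes that includes S100a5, a calcium-binding protein. In this assay a receptor whose neurons respond to the odorant is looked for as an mRNA that becomes more abundant among GFP-bearing cells relative to the other cells.

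Titles and characteristics gave opposite GFP signs for every sample, and the fractions are named by their titles here. S100a5 itself was lower in the library titled GFP+ of 8 of 8 pools, which goes against the titles. If the characteristics hold, every sort difference and every change below turns its sign, and a receptor of responding neurons would be looked for among negative changes. Omp, the marker protein of mature olfactory neurons, lay between 18.72 and 18.95 in all 16 arrays, close to the top of the scale at 19.71, so mature neuron RNA was abundant in both fractions.

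The sort rests on the S100a5 gene, and Pcdh10, an adhesion protein of olfactory axons that activity also raises, had higher levels with undecanal in both fractions of these data. Olfr774 had the lowest change of all receptors. The 250 bases before their RefSeq starts are shown because these are the proximal promoters of the gene that drives the reporter, of Pcdh10 and of Olfr774 (GRCm38.p6, 5′ to 3′ on the gene's strand, all on the plus strand: S100a5 chr3:90608272-90608521, Pcdh10 chr3:45378148-45378397, Olfr774 chr10:129237901-129238150). Capitals mark matches on either strand to the motifs searched, which were the cyclic AMP response element (CRE, TGACGTCA), its short form (TGACG, contained in the former), the AP-1 site (TGANTCA), the Olf/Ebf site (CCCNNGGG), the homeodomain site (TAATTA) and the Egr site (GCGTGGGCG).
S100a5: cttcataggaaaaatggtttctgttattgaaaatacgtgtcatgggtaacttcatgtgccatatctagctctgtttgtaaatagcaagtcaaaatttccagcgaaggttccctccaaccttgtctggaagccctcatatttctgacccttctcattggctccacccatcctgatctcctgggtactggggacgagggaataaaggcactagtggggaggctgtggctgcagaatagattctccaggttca
Pcdh10: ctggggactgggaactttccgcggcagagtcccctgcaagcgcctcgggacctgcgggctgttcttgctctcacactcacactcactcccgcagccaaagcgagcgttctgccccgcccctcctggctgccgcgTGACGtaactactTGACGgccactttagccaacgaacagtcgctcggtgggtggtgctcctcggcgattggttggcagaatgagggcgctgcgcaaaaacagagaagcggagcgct
Olfr774: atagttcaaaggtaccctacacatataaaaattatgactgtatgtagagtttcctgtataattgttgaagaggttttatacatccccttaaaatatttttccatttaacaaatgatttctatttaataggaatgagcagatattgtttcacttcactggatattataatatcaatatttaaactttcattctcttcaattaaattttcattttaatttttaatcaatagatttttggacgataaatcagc
The Pcdh10 window held 2 short CRE sites, beginning 116 and 103 bases before the start, and no other motif searched. A short CRE was found in 17.8% of 32851 windows of the same length in RefSeq's table. The letters of these motifs were not in the S100a5 and Olfr774 windows. Among 948 windows of odorant receptor genes the homeodomain site was found in 18.0%, the AP-1 site in 10.7%, the short CRE in 4.22%, the Olf/Ebf site in 2.74%, the full CRE in 0.105% and the Egr site in 0%. Over all windows the shares were 4.84% for the homeodomain site, 6.75% for the AP-1 site, 11.8% for the Olf/Ebf site, 1.55% for the full CRE and 0.536% for the Egr site.

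Both agents left S100a5 below 0 in the sort. The sort difference of S100a5 was -1.29, -0.71, -0.82 and -0.82 on the log2 scale in vehicle pools 1 to 4 and -1.10, -1.32, -0.75 and -0.70 in undecanal pools 1 to 4. These ranges overlap almost fully, and all 8 values are negative. The change was -0.06 (SE 0.215, 95% interval -0.53 to 0.42, limma adjusted p = 1, exact two-sided permutation p = 0.886 over 70 regroupings of the 8 pools). An exact test of 4 pools against 4 cannot go below p = 0.0286. Omp had sort differences of -0.0035 ± 0.0911 (SD, n = 4) with vehicle and -0.0461 ± 0.0349 (SD, n = 4) with undecanal. Its change was -0.04 (SE 0.161, 95% interval -0.40 to 0.31, limma adjusted p = 1, exact permutation p = 0.543). The intervals of both genes exclude a change of 1 in the array signal on the log2 scale, which is 2-fold. Cells were sorted on a reporter that follows S100a5, so the sort itself bears on the S100a5 sort difference with either agent. How far this holds it constant was not tested. Omp signals lay close to the top of the scale, where differences in mRNA may be understated, which was not tested.

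**Figure D1:**
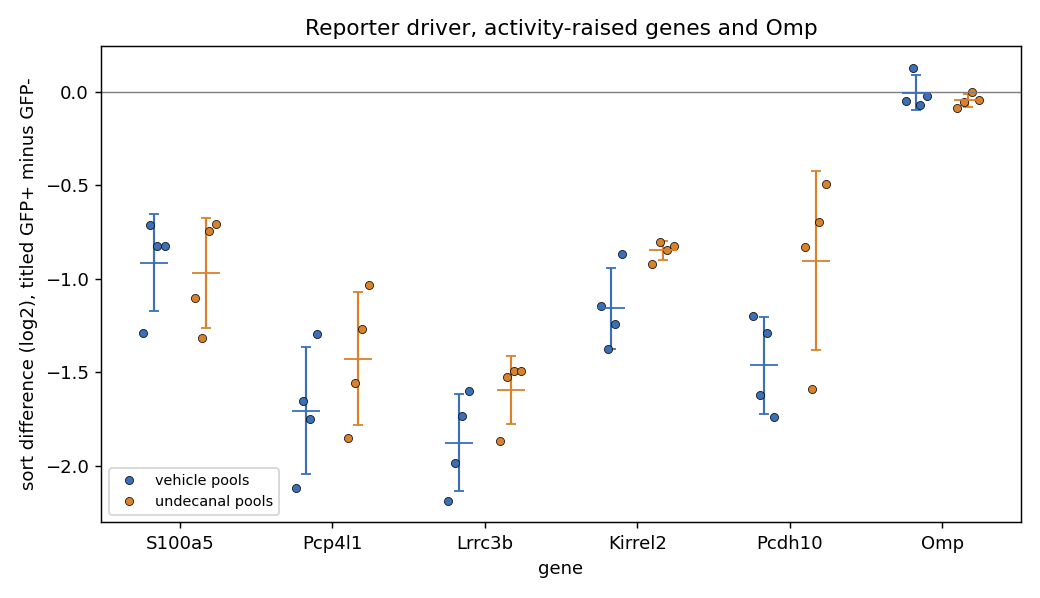
Sort difference (log2, titled GFP+ minus titled GFP-) of S100a5, 4 other genes that activity raises and Omp, with a point for each pool and the mean ± SD of 4 vehicle pools (blue) and 4 undecanal pools (orange). The 5 activity-raised genes are below 0 in every pool, Omp is near 0, and the agents overlap for each gene.

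The other genes that activity raises were likewise lower in the fraction titled GFP+ of every pool, by less with undecanal on average. Pcdh10 had sort differences of -1.20, -1.62, -1.29 and -1.74 with vehicle and of -0.83, -1.59, -0.70 and -0.49 with undecanal. Undecanal pool 2 lay among the vehicle values, and the other 3 undecanal pools lay above them. The change was 0.56 (SE 0.258, 95% interval -0.0089 to 1.13, limma adjusted p = 1, exact permutation p = 0.0857). Behind it stand levels that were higher with undecanal in both fractions, by 1.35 in arrays titled GFP- (8.54 to 8.97 with vehicle, 9.84 to 10.41 with undecanal) and by 1.91 in arrays titled GFP+ (6.80 to 7.68 and 8.82 to 9.75). Neither fraction overlapped between agents, while the sort differences did. Kirrel2, an immunoglobulin adhesion protein that sorts olfactory axons, went from -1.16 ± 0.215 (SD, n = 4) to -0.85 ± 0.0523 (SD, n = 4), a change of 0.31 (SE 0.177, limma adjusted p = 1, exact permutation p = 0.0571). Lrrc3b, a leucine-rich repeat membrane protein, had sort differences of -1.88 ± 0.261 (SD, n = 4) with vehicle and -1.59 ± 0.183 (SD, n = 4) with undecanal (change 0.28, SE 0.197, exact permutation p = 0.171, limma adjusted p = 1). Pcp4l1 had a change of 0.28 (SE 0.242, exact permutation p = 0.286, limma adjusted p = 1). Of these 5 genes 0 passed, 4 had a positive change and the median was 0.28, against 0.0072 over all probe sets. For 4 of the 5 the 95% interval lay within 1 on either side of 0.

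Across the odorant receptors, the mRNAs that the assay reads, the sort differences were wide, and pools of different agents correlated as closely as pools of the same agent. Of 1091 receptor probe sets 1011 had at least 1 group mean over log2 4.802, called background here. It is the value that 95% of the group means of 356 vomeronasal and bitter receptor probe sets did not exceed. Over the receptors, the sort differences of 12 pairs of pools given the same agent correlated with r from 0.889 to 0.920 (median 0.911), and those of 16 pairs given different agents with r from 0.898 to 0.941 (median 0.916). These values are across genes, which are not independent replicates, and they describe the arrays only.

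**Figure D2:**
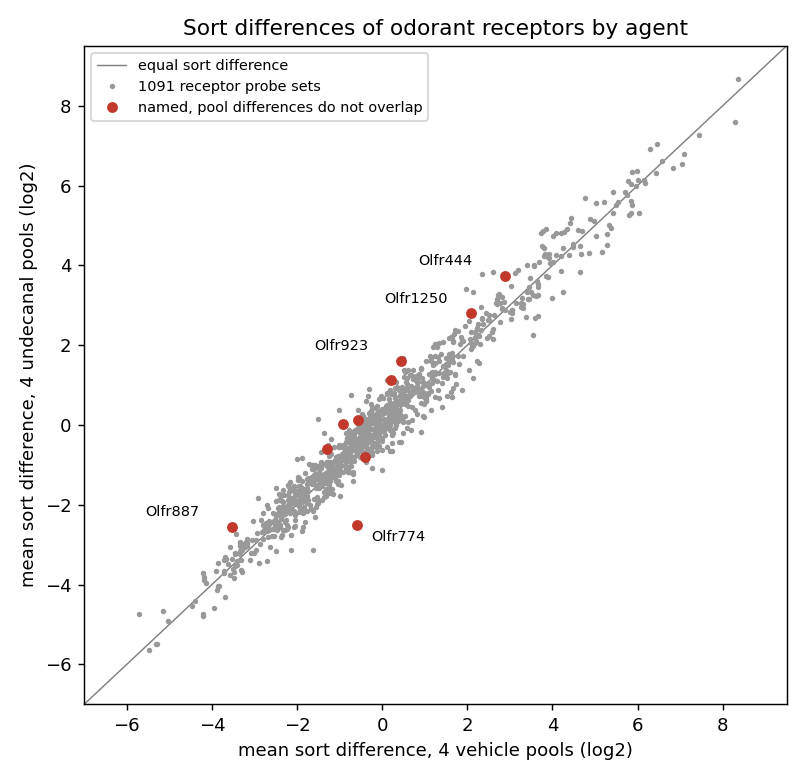
Mean sort difference (log2) of 1091 odorant receptor probe sets in 4 vehicle pools (x axis) and 4 undecanal pools (y axis), with the line of equal values. Red points are the 10 named receptors whose pool differences did not overlap between agents; Olfr774 lies at -0.60 and -2.51.

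None of the receptors passed: 0 of 1091 had a limma adjusted p under 0.05, and 54 had an unadjusted p under 0.05 (4.95%, against 3.87% of all probe sets). Their changes ran from -1.91 to 1.66, with a median of 0.12, quartiles of -0.14 and 0.35 and a median SE of 0.366. The 95% interval, not adjusted for the number of receptors, lay within 1 on either side of 0 for 406 receptors (37.2%) and reached a 2-fold change for 685. Of all probe sets 80.2% had such an interval within 1. A change was positive for 676 receptors (62.0%) and for 51.3% of all probe sets. That lean depended on the pools used: the share was 48.9% without vehicle pool 1 and 48.6% without undecanal pool 4. With any other single pool left out it ran from 58.3% to 67.8%, and without both pools numbered 4 it was 55.0%. The mean sort difference of the receptors rose with the pool number, from -0.45 to 0.12 with vehicle and from -0.20 to 0.355 with undecanal. A single omission leaves these numbers unequal between the agents. With arrays centred on the receptor median the share with a positive change was 44.6% and the median change -0.04. That setting removes any shift shared by the receptors by construction, so it cannot test the lean. It lowers every change by the same amount and moves the median of all probe sets to -0.15. List medians that are negative only under it were therefore small positive values as reported. The median sort difference of the receptors was -0.60, -0.42, -0.23 and -0.21 in vehicle pools 1 to 4 and -0.34, -0.48, -0.27 and 0.08 in undecanal pools 1 to 4, so the pools of the agents overlapped. By the sort difference averaged over the 8 pools, the median change was 0.12 (quartiles -0.12 and 0.28) among the 372 receptors at -1 or less, 0.13 (-0.11 and 0.37) among the 465 in between and 0.08 (-0.21 and 0.41) among the 254 at 1 or more. The shares with an unadjusted p under 0.05 were 3.23%, 5.38% and 6.69% in that order, and the median SE was 0.347, 0.358 and 0.427; differences between these classes were not tested.

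For 14 receptors the 4 undecanal sort differences did not overlap the 4 vehicle ones (1.28%, against 2.3% of all probe sets), 11 of them higher (1.25% of all probe sets were) and 3 lower (1.05%). The share among receptors was thus below that of all probe sets, and each of the 14 had a limma adjusted p of 1. Of these, 12 were above background, 10 higher and 2 lower, and the 8 largest positive and both negative ones are described. In all 10 positive cases above background the mean in arrays titled GFP- was lower with undecanal, and in 9 of them this was the larger part of the change. These 10 were picked for a positive change, and a lower mean in arrays titled GFP- is part of that change by definition. The counts are therefore no separate result. Over all 1091 receptors the median of undecanal minus vehicle was 0.0027 in arrays titled GFP+ and -0.0942 in arrays titled GFP-.

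**Figure D3:**
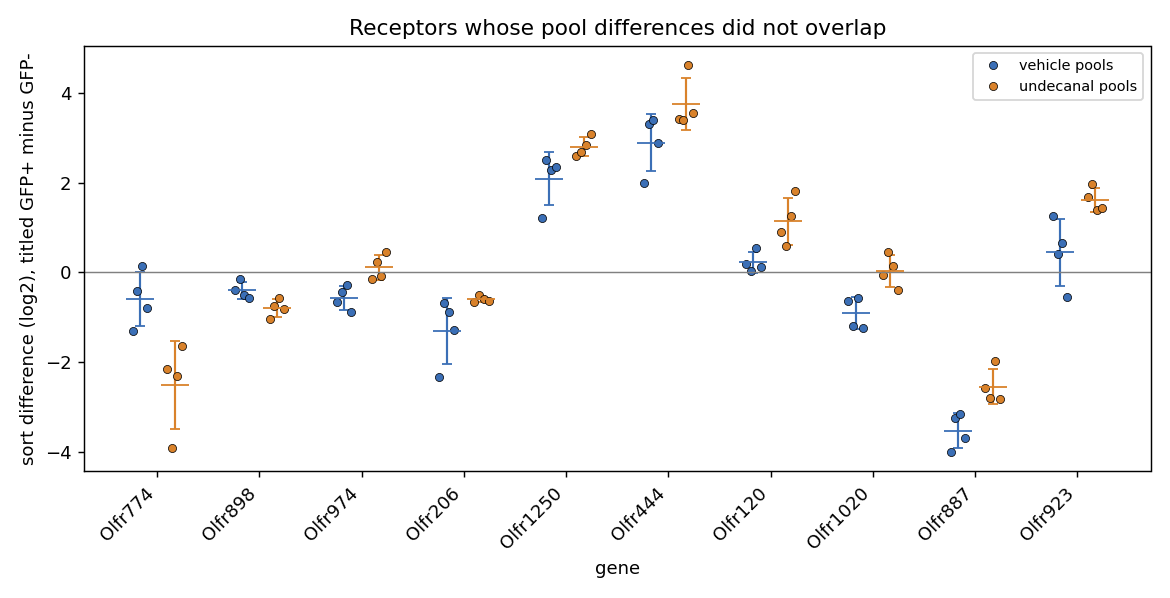
Sort difference (log2, titled GFP+ minus titled GFP-) of the 10 named receptors without overlap, ordered as lower and higher with undecanal, with a point for each pool and the mean ± SD of 4 pools per agent. Olfr774 shows the widest gap between agents, and its lowest point, -3.92, is undecanal pool 2.

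Olfr774 had the largest change of any receptor, towards the fraction titled GFP-. With vehicle its sort differences were -1.31, -0.42, 0.14 and -0.80, and with undecanal -2.16, -3.92, -2.31 and -1.65. The highest undecanal value lay below the lowest vehicle value. The change was -1.91 (SE 0.462, 95% interval -2.93 to -0.89, limma adjusted p = 1), and it was between -2.27 and -1.44 under all alternatives run. In arrays titled GFP- its level was 7.53, 7.09, 7.03 and 7.24 with vehicle and 8.57, 8.96, 8.80 and 8.02 with undecanal, with no overlap. In arrays titled GFP+ it was 6.22, 6.67, 7.16 and 6.44 with vehicle and 6.40, 5.04, 6.49 and 6.37 with undecanal, and these overlapped. All 16 levels were above background. Olfr898 was the other receptor above background that was lower with undecanal without overlap. It went from -0.41 ± 0.187 (SD, n = 4) to -0.80 ± 0.191 (SD, n = 4), a change of -0.39 (SE 0.186, limma adjusted p = 1).

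Among the receptors without overlap and above background, Olfr923 had the largest positive change. With vehicle its sort differences were 1.26, 0.41, 0.65 and -0.55, and with undecanal 1.67, 1.97, 1.38 and 1.42, a change of 1.17 (SE 0.339, 95% interval 0.42 to 1.92, limma adjusted p = 1). Its mean in arrays titled GFP- was 8.66 with vehicle and 7.53 with undecanal, while that in arrays titled GFP+ was 9.10 and 9.14. Olfr887, found mainly in arrays titled GFP-, had sort differences of -4.01, -3.25, -3.17 and -3.70 with vehicle and -2.58, -2.81, -1.98 and -2.83 with undecanal, a change of 0.98 (SE 0.263, limma adjusted p = 1). Olfr1020 went from -0.92 ± 0.355 (SD, n = 4) to 0.03 ± 0.361 (SD, n = 4), a change of 0.95 (SE 0.247, limma adjusted p = 1), so this receptor was lower in the fraction titled GFP+ of every vehicle pool and showed both signs with undecanal. The other 5 were Olfr120 (change 0.92), Olfr444 (0.86), Olfr1250 (0.71), Olfr206 (0.70) and Olfr974 (0.69). Without vehicle pool 1 the change was 0.56 for Olfr444, 0.41 for Olfr1250 and 0.36 for Olfr206, and without undecanal pool 3 it was 0.57 for Olfr444. Olfr974 was lower in the fraction titled GFP+ of each vehicle pool, from -0.90 to -0.29, and ranged from -0.15 to 0.45 in undecanal pools. Olfr1535, named outside the rule after its values were seen, had the smallest p of the receptors (change 1.49, SE 0.269, limma adjusted p = 1), with all 4 group means, from 3.15 to 4.23, below background.

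The receptors with the largest sort differences had overlapping values with the agents in all 10 cases. Olfr1507 differed by 8.35 ± 0.602 (SD, n = 4) in vehicle pools and by 8.67 ± 0.281 (SD, n = 4) in undecanal pools, a change of 0.31 (SE 0.295, 95% interval -0.34 to 0.97). Its level was 13.42 to 14.68 in arrays titled GFP+ and 4.97 to 6.19 in arrays titled GFP-, with no overlap between fractions. At the other end Olfr110 differed by -5.47 ± 0.179 (SD, n = 4) and -5.65 ± 0.475 (SD, n = 4), a change of -0.17 (SE 0.247, 95% interval -0.72 to 0.37). The changes of the other receptors at the ends were -0.70 for Olfr1213, -0.50 for Olfr1178, -0.30 for Olfr1384 and -0.19 for Olfr390 among those high in the fraction titled GFP+. Among those low there they were 0.98 for Olfr1093, -0.20 for Olfr536, -0.18 for Olfr309 and 0.11 for Olfr481. None passed in limma (adjusted p = 1 for each). The mean of Olfr1093 in vehicle arrays titled GFP+, 4.63, was below background, and its change was 0.59 with levels set to at least the background. Olfr1178 had means of 4.57 with vehicle and 4.43 with undecanal in arrays titled GFP-, both below background. With the same floor the change was -0.63 for Olfr1178, -0.56 for Olfr1213, -0.26 for Olfr390 and 0.08 for Olfr481. Of the 10 receptors, Olfr309, Olfr390 and Olfr481 turned sign when single pools were left out, and Olfr481 also with arrays centred on the receptor median.

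Receptors with published ligands held no call either. Of 12 measured probe sets on a list of 14, 0 passed, 8 had a positive change and the median was 0.10, which was -0.06 with arrays centred on the receptor median. Olfr16, a receptor of the aldehyde lyral, had sort differences of 1.43, 1.96, 1.40 and 1.76 with vehicle and 2.14, 2.50, 1.48 and 2.72 with undecanal. All 8 were positive and undecanal pool 3 lay within the vehicle range; the change was 0.57 (SE 0.276, 95% interval -0.04 to 1.18, limma adjusted p = 1). Olfr160, known as M72 and responsive to acetophenone, had a change of 0.32 (SE 0.214, 95% interval -0.15 to 0.80, limma adjusted p = 1). Olfr2, known as I7 and responsive to the shorter aldehyde octanal, was named outside the rule. Its change was 0.46 (SE 0.315, 95% interval -0.24 to 1.16, limma adjusted p = 1), and a 2-fold change lay within the interval. Its group means, from 4.89 to 5.92, were close to background. The trace amine-associated receptors, the amine-sensing receptors of a separate set of olfactory neurons, had a median change of 0.42 with 10 of 14 positive and 0 passing. Taar5, a trimethylamine receptor, differed by 0.80 (SE 0.333, limma adjusted p = 1; 0.08 with levels set to at least the background) with sort differences of -1.93 to -1.05 and -1.49 to 0.04, which overlapped, and Taar8c by 0.82 (SE 0.483, limma adjusted p = 1).

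Outside the receptors the largest change of a named gene was that of Cd44, a hyaluronan receptor of basal cells and leukocytes. With vehicle its sort differences were 7.15, 6.15, 5.05 and 5.90, and with undecanal 3.24, 3.99, 4.10 and 3.64, so they did not overlap. The change was -2.32 (SE 0.389, 95% interval -3.18 to -1.46, limma adjusted p = 1). Over the alternatives its adjusted p was 0.333 to 1. In arrays titled GFP+ its mean was 9.84 with vehicle and 9.96 with undecanal. In arrays titled GFP- its level was 2.50, 4.13, 4.87 and 3.59 with vehicle and 6.98, 6.54, 5.89 and 5.48 with undecanal, so 3 of the 4 vehicle arrays were below background. With every level below background set to it, the change was -1.28.

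Genes without overlap and above background that were not receptors numbered 273, 149 higher and 124 lower; over all probe sets, at any level, 511 of 22206 did not overlap (2.3%). Gpx6, a glutathione peroxidase of the olfactory epithelium and Bowman glands, had sort differences of 2.16, 2.86, 2.71 and 2.63 with vehicle and 0.67, 2.07, 1.35 and 1.10 with undecanal, a change of -1.29 (SE 0.293, limma adjusted p = 1). Its mean in arrays titled GFP- was 7.62 with vehicle and 8.61 with undecanal, all above background. Brwd1, a bromodomain protein, was higher in the fraction titled GFP+ of all 4 vehicle pools (0.21 to 0.80) and lower there in all 4 undecanal pools (-1.31 to -0.15), a change of -1.14 (SE 0.279, limma adjusted p = 1). Lgr5, an R-spondin receptor that marks dividing basal progenitors, showed the same pattern (0.17 to 0.96 and -0.81 to -0.09; change -0.90, SE 0.229, limma adjusted p = 1). The lowest of its 4 group means was 4.45 and the highest 4.96, and the change was -0.29 with levels set to at least the background. That floor also reduced the change of Cd14, the lipopolysaccharide co-receptor of monocytes, from -0.87 to -0.10. It reduced that of Rhag, an erythroid membrane protein, from -1.14 to -0.41, and that of Stxbp6, a syntaxin-binding protein, from -1.23 to -0.15. Cdk18, a cyclin-dependent kinase, had a change of -0.86 and of -0.53 with the floor.

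**Figure D4:**
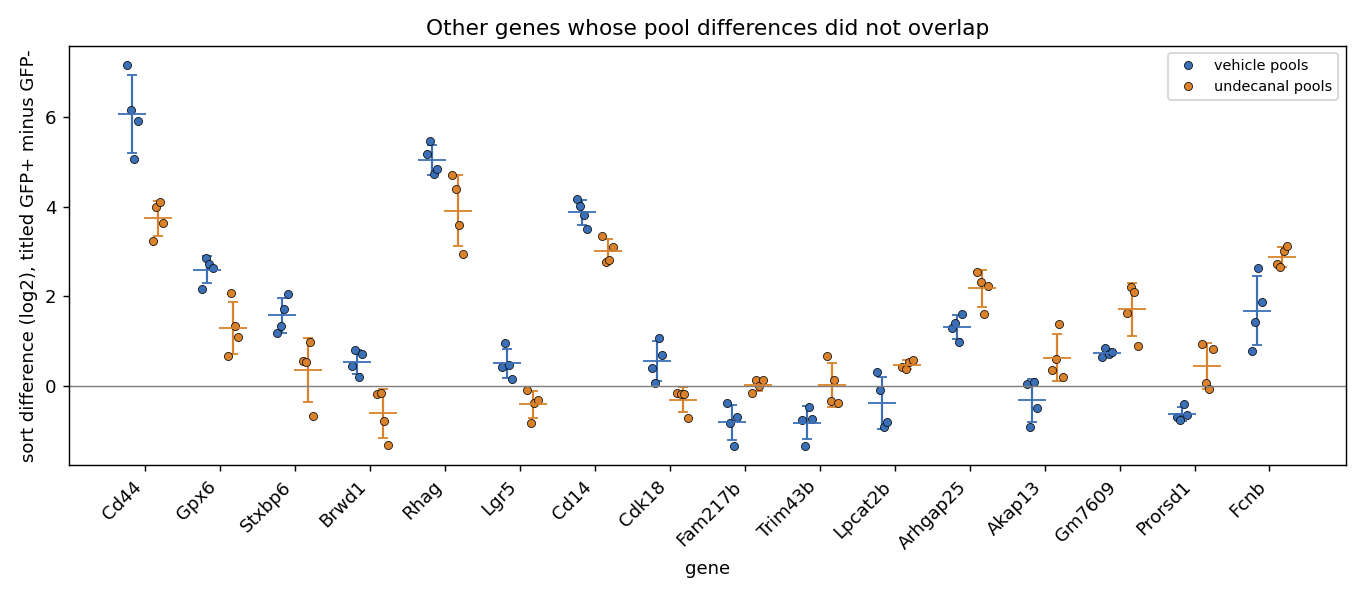
Sort difference (log2, titled GFP+ minus titled GFP-) of the 16 named genes that are not odorant receptors and whose pool differences did not overlap, with a point for each pool and the mean ± SD of 4 pools per agent. Cd44 has the widest gap, from a vehicle mean of 6.06 to an undecanal mean of 3.74.

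In the other direction, Fcnb, a ficolin of myeloid cells, had sort differences of 0.79, 1.44, 2.63 and 1.87 with vehicle and 2.72, 2.65, 3.01 and 3.12 with undecanal, a change of 1.19 (SE 0.341, limma adjusted p = 1) and of 0.71 with levels set to at least the background. Prorsd1, a protein related to prolyl-tRNA synthetase, was lower in the fraction titled GFP+ of all 4 vehicle pools (-0.76 to -0.40) and ranged from -0.05 to 0.94 in undecanal pools, a change of 1.07 (SE 0.255, limma adjusted p = 1). Others were Gm7609 (0.96), Akap13, an anchoring protein of protein kinase A (0.95), Lpcat2b (0.85, and 0.36 with the floor), Trim43b (0.84) and Fam217b (0.84). None of the 16 passed in limma (adjusted p = 1 for each).

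Gene lists for the immune and blood cells of the mucosa had overlapping pool means with the agents. Neutrophil genes had the largest sort difference, averaging 7.43 to 8.002 over 13 probe sets in vehicle pools and 7.22 to 8.34 in undecanal pools. Their median change was 0.10, which was -0.05 with arrays centred on the receptor median. S100a8, a granule calcium-binding protein, was far above 0 with both agents, at 8.69 to 10.14 and 8.62 to 10.47 (change 0.64, and 0.11 with the floor). Csf3r, another member, had a change of -0.77 (SE 0.592, and -0.43 with the floor). Of the 13 members 7 had a positive change and 6 a negative one. Monocyte and macrophage genes averaged 3.78 to 4.69 and 3.60 to 4.83 over 14 probe sets, with a median change of 0.11 (-0.05 with arrays centred on the receptor median) and 2 members at an unadjusted p under 0.05, Cd14 and the macrophage receptor Adgre1 (0.55, and 0.10 with the floor). Lymphocyte genes averaged 1.11 to 1.82 and 0.83 to 2.19 over 13 (median change 0.16, with 1 such member, Klrb1c, 1.06 and 0.11 with the floor), and erythroid genes 2.09 to 2.72 and 1.62 to 2.92 over 7 (-0.18). In each of these 4 lists the agents overlapped and 0 members passed, so immune and erythroid RNA followed the sort with both agents. Its part in the changes above was not tested.

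**Figure D5:**
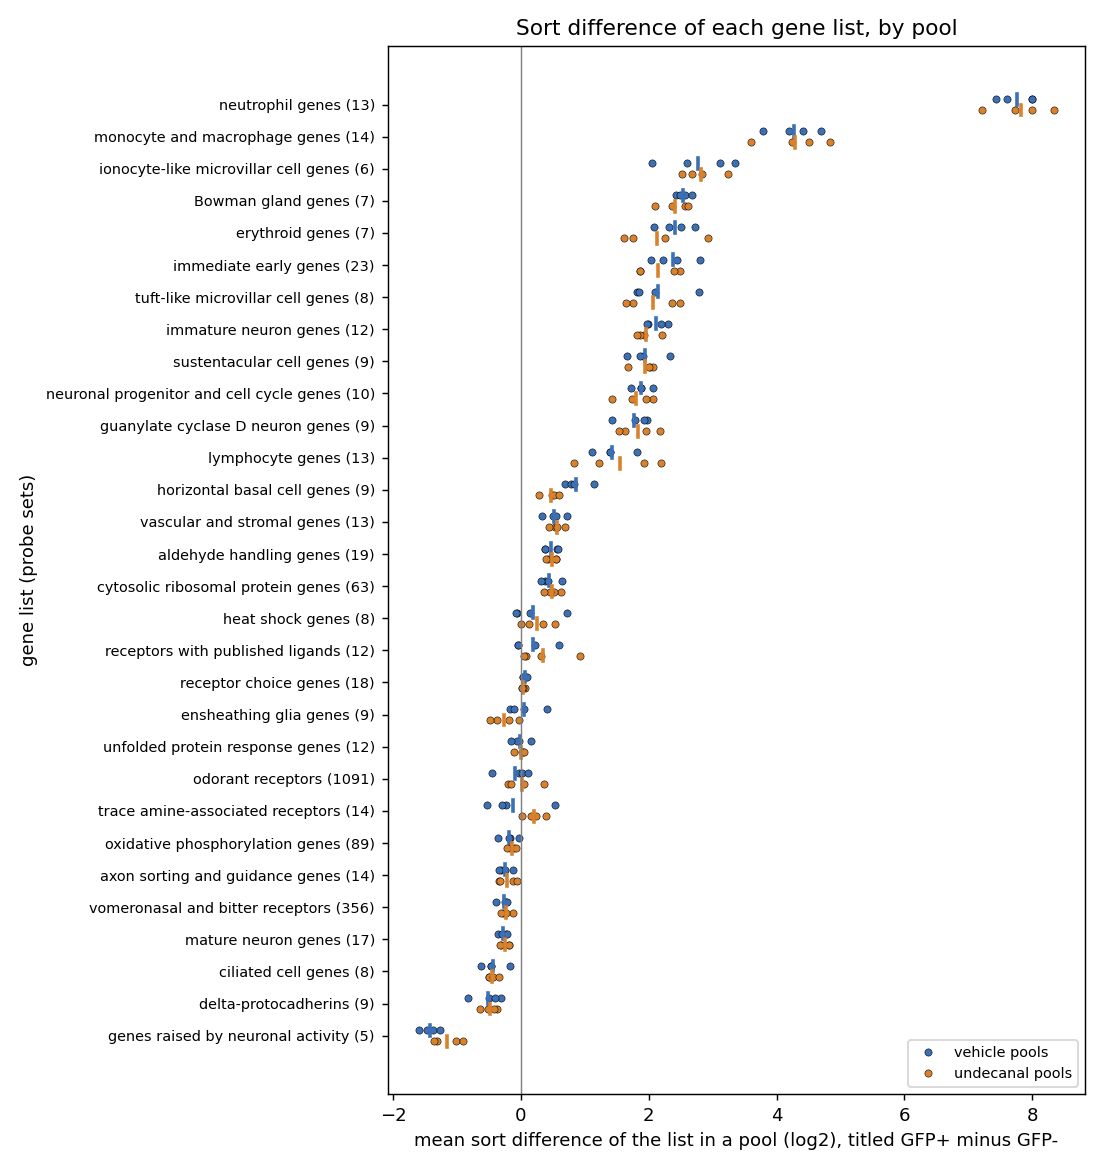
Mean sort difference (log2, titled GFP+ minus titled GFP-) of each gene list in each of 4 vehicle pools (blue) and 4 undecanal pools (orange), with the mean over pools as a bar; the number of probe sets is in parentheses. The lists run from -1.42 (activity-raised genes, vehicle mean) to 7.82 (neutrophil genes, undecanal mean), and the agents overlap for every list shown except the horizontal basal cell genes.

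Of the epithelial and glandular lists, only horizontal basal cell genes had pool means that did not overlap. Sustentacular cell genes averaged 1.66 to 2.34 with vehicle and 1.68 to 2.06 with undecanal over 9 probe sets. Their median change was -0.09, which was 0.02 with dim probe sets left out, and the member with the smallest p was Cyp1a2, a cytochrome P450 (-0.56, SE 0.195, limma adjusted p = 1, no overlap). Ionocyte-like microvillar cell genes (median change -0.02 over 6) had Coch, a secreted matrix protein, at 0.60 (SE 0.24, limma adjusted p = 1), without overlap, and tuft-like microvillar cell genes (-0.04 over 8) and Bowman gland genes (0.03 over 7, negative with arrays centred on the receptor median) had none passing. Horizontal basal cell genes, of which 2 of 9 were above background, averaged 0.68 to 1.15 with vehicle and 0.28 to 0.59 with undecanal and did not overlap. Without Cd44 the other 8 averaged 0.002 to 0.40 and -0.14 to 0.15, which overlapped, and their integrin Itga6 had a change of -1.05 (SE 0.446, limma adjusted p = 1). Genes of ensheathing glia, of which 4 of 9 were above background, had a median change of -0.30, with Npy, a neuropeptide of these glia, at -0.86 (SE 0.333, limma adjusted p = 1) and at -0.07 with the floor.

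Neuronal lists gave no call. Mature neuron genes, which include the transduction cascade, had 0 of 17 at an unadjusted p under 0.05, and for all 17 the 95% interval lay within 1 on either side of 0. The mean level of this list was 15.81 to 16.27 in an array. For members close to the top of the scale, such as Omp, differences in mRNA may be understated, which was not tested. The median change of the list was 0.09, which was -0.06 with arrays centred on the receptor median. Cngb1, a subunit of the transduction channel, had the smallest p (-0.42, SE 0.257, limma adjusted p = 1). Its group means, from 4.52 to 5.12, were close to background, and its change was -0.32 with levels set to at least the background. Immature neuron genes averaged 1.98 to 2.30 with vehicle and 1.82 to 2.22 with undecanal, with a median change of -0.16 and Gng8, a G protein subunit of immature neurons, at -0.48 (SE 0.374). Progenitor and cell cycle genes had a median of -0.03 over 10 probe sets. Of 23 probe sets of immediate early genes, the rapid transcription factors of stimulated cells, 18 had a negative change, with a median of -0.24 and 0 at an unadjusted p under 0.05. Of all 22206 probe sets 10817 had a negative change. The pool means of the immediate early genes were 2.04 to 2.80 with vehicle and 1.86 to 2.49 with undecanal and overlapped. They lay on the opposite side of the sort from the 5 activity-raised genes, at -1.59 to -1.265 with vehicle and -1.36 to -0.91 with undecanal. Which cells they came from was not tested. Nr4a3, an orphan nuclear receptor, had sort differences of 4.94, 5.04, 2.81 and 2.79 and of 2.53, 3.58, 1.57 and 3.03 (change -1.22, SE 0.595, limma adjusted p = 1; -0.43 with levels set to at least the background). Npas4, an activity-dependent factor of neurons, had a change of -0.52 with all 4 group means below background.

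Among axon sorting and guidance genes 0 of 14 passed and the median was 0.05, negative with arrays centred on the receptor median. Sema3f, a secreted semaphorin that repels olfactory axons, was higher in the fraction titled GFP+ of each vehicle pool (0.06 to 0.53) and lower there in each undecanal pool (-0.42 to -0.14), a change of -0.53 (SE 0.18, limma adjusted p = 1). The 9 delta-protocadherins had a median change of 0.01, negative with 2 of the 4 other scalings, and Pcdh10 had the smallest p of them. Genes of aldehyde handling, the enzymes that could act on undecanal, had a median of 0.0036 over 19 probe sets, negative with 3 of the 4 other scalings, with 10 positive, 9 negative and 0 at an unadjusted p under 0.05. Aldh1a7 (-0.49, SE 0.24) and Aldh7a1 (0.30, SE 0.212) had the smallest p of them. The medians were -0.05 for receptor choice genes, 0.11 for guanylate cyclase D neuron genes, 0.06 for the unfolded protein response and 0.11 for heat shock genes, each with 0 members at an unadjusted p under 0.05, and the last 3 of these were negative with arrays centred on the receptor median.

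Pools numbered 4 stood apart in genes of the Y chromosome with both agents. Uty, a histone demethylase gene of the Y chromosome, had levels of 7.03 to 8.84 in the 4 arrays of these pools and 9.28 to 10.62 in the other 12. Kdm5d had levels of 3.92 to 4.63 in these pools and 5.16 to 6.68 in the others. In arrays titled GFP- its level was 6.55, 6.33, 5.53 and 4.63 in vehicle pools 1 to 4. It was 6.56, 6.68, 5.65 and 4.55 in undecanal pools 1 to 4, so the pools numbered 3 were also lower than those numbered 1 and 2. Both fractions of a pool were alike in this, except that Uty was lower by 1.81 in the vehicle pool 4 array titled GFP+ than in its array titled GFP-. With both pools numbered 4 left out, 0 probe sets passed, 55.0% of receptors had a positive change and Olfr774 had a change of -2.27.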

How the data were processed

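The deposited values are log2 probe set signals that the authors made with Affymetrix Expression Console from Clariom S arrays, per the submitters' processing notes; which algorithm and version is not given in the sources used here. Values ran from 1.44 to 19.71. Of 28846 rows 6640 controls were left out and 22206 tested. By the platform annotation, 19572 of these had 1 gene and 2634 had none, and 19572 gene identifiers matched RefSeq (GRCm38.p6). Probe sets of near-identical receptors can share signal.

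Groups followed the titles. Same-numbered arrays of 1 agent were taken as fractions of the same mice, since 24 mice in groups of 3 make 8 pools; deviations from group means of the paired fractions correlated (Pearson r 0.050 to 0.271; 6 of the 8 pools were over 0.1). Over pool differences, same-numbered pools of the 2 agents had r from -0.042 to 0.149, over 0.1 for 1 of 4 numbers. The main fit did not use the number as a pairing across agents. A level shift shared by both fractions cancels in a pool difference, so these r cannot show whether the numbers mark a shared batch. Y chromosome genes were lowest in the pools numbered 4 of both agents. The fit with the number as a block across agents is among the alternatives. limma 3.58.1 (lmFit, eBayes; R 4.3.3) was fitted to the 8 pool differences, with Benjamini-Hochberg adjustment over all 22206 probe sets and a threshold of 0.05. The fit was tested on simulated data. Members, lists and tests were chosen with earlier results of these data known. Named were S100a5, Omp, 4 further activity-raised genes, up to 8 receptors and 8 other genes per direction without overlap and above background, up to 2 members per list by p, and the 5 receptors at each end of the sort. The text names part of them. Alternatives covered the pool block, scaling, dim probe sets, the prior, weights, left-out pools and, chosen after seeing the data, a floor at background and leaving out both pools numbered 4.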

Additional observations from a re-analysis of the deposited data

Results flagged for a closer look

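In 254 groups of 4 pools examined (each named gene and list with each agent), 11 held a pool whose gap to the nearest of the others was past the 95% critical value of Dixon's test; chance flags about 1 in 20 groups. Among receptors, Olfr1250 had a sort difference of 1.204 in vehicle pool 1 against 2.29 to 2.51 in the others, Olfr444 had 4.62 in undecanal pool 3 against 3.40 to 3.54, and Olfr1384 had 7.76 in undecanal pool 4 against 6.42 to 6.52. Among neuronal genes, Lrrc3b had -1.87 in undecanal pool 1 against -1.52 to -1.49, Gng8 had 4.599 in undecanal pool 2 against 3.61 to 3.73, and Npas4 had 0.58 in vehicle pool 1 against -0.41 to -0.25. Cdk18 had -0.71 in undecanal pool 4 against -0.17 to -0.15. Acta2 had 0.13 in undecanal pool 2 against 0.46 to 0.52, and Dnaic1 had -1.06 in undecanal pool 2 against -0.49 to -0.45. Uty had -1.81 in vehicle pool 4 against -0.21 to -0.12. The sustentacular cell genes averaged 1.68 in undecanal pool 3 against 2.00 to 2.06.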

How the results depend on the processing

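The count of probe sets that passed was 0 under all 19 alternative fits, with and without the pool as a replicate block, and so was that of receptors; the smallest adjusted p of any probe set was 0.313, with the replicate block as a random effect. Probe sets with an unadjusted p under 0.05 numbered 441 with arrays centred on the receptor median and 517 with dim probe sets left out, where fewer were tested, against 860. Receptors with an unadjusted p under 0.05 numbered 31 with no replicate block and 112 with the replicate block across agents, against 54; the cause was not tested. With single pools left out, the S100a5 change ran from -0.182 to 0.0618, positive without vehicle pool 2 (0.012) or undecanal pool 2 (0.0618), and the Omp change from -0.0651 to 0.0019, positive without vehicle pool 2 (0.0019). Omp was also positive with quantile normalization (0.0317). Of 1793 gene values under these fits 15 turned sign, in 6 genes. With single pools left out, Uty ran from -0.224 to 0.339, Olfr309 from -0.69 to 0.246, Olfr390 from -0.673 to 0.398 and Olfr481 from -0.139 to 0.255. Uty was -0.194 without both pools numbered 4. Olfr390 was also 0.126 without both pools numbered 4, and Olfr481 was -0.044 with arrays centred on the receptor median. No replicate block fit changed a call. Levels near background limit what dim genes can show.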

Other observations

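Vascular and stromal genes had a median change of 0.04 over 13 probe sets (negative with arrays centred on the receptor median) and ciliated cell genes of -0.03 over 8, with 0 members passing in either. In the former Acta2, smooth muscle actin, had a change of -0.58 and Kdr, an endothelial receptor, of 0.50, both with all group means below background, and in the latter Dnaic1, a dynein intermediate chain, of -0.47, each with a limma adjusted p of 1. Cytosolic ribosomal protein genes had a median of 0.04 over 63 probe sets, with Rpl35a at 0.58, and oxidative phosphorylation genes one of 0.03 over 89, with Ndufa11 at 0.40. Both medians were negative with arrays centred on the receptor median. The vomeronasal and bitter receptors that set the background level had a median of 0.03 over 356, negative with 2 of 4 other scalings. The highest change of all, 3.22 (SE 1.80, limma adjusted p = 1), belonged to a probe set without a gene name whose sort difference had an SD of 4.38 in vehicle pools; it was singled out after its value was seen.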
